A study of Caenorhabditis elegans with 6 samples.

Results

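The catalases, superoxide dismutases and peroxiredoxins of *Caenorhabditis elegans* were followed in whole nematodes treated with the organophosphorus pesticide chlorpyrifos (CPF), an inhibitor of acetylcholinesterase. The group holds 10 genes, which were chosen by name: the catalases ctl-1, ctl-2 and ctl-3, the superoxide dismutases sod-1 to sod-5 and the peroxiredoxins prdx-2 and prdx-3. They had 13 of the 22490 gene probes on the array, of which 9, for 8 genes, were bright enough to be tested among 11033 probes of 9947 genes. Wild type N2 (Bristol) animals grew from the egg at 24 °C on agar with the *Escherichia coli* strain OP50 as food. CPF animals received 0.5 mg/l CPF dissolved in acetone and control animals acetone alone. The labels give an age of 72 h and larvae at the L3 or L4 stage, while the study's methods give a shorter time at this temperature, and the files do not settle this. Each sample pooled the animals of 4 dishes, and RNA of a CPF and of a control sample was hybridised together on each of 6 arrays of long oligonucleotide probes. The dyes were swapped: 3 arrays had CPF in Cy5 and control in Cy3, and 3 arrays, named CPF in Cy3, had the reverse.

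Superoxide arises mainly as a by-product of electron transport in mitochondria, and also from oxidases. Superoxide dismutases turn it into hydrogen peroxide and oxygen. Catalases then break hydrogen peroxide down to water and oxygen, and peroxiredoxins reduce it with electrons from thiols. Most catalase of animal cells lies in peroxisomes, organelles whose fatty acid oxidation itself gives off hydrogen peroxide. In *C. elegans*, ctl-2 codes for the peroxisomal catalase, ctl-1 for a cytosolic one and ctl-3 for a close relative. Of the dismutases, sod-1 and sod-5 code for cytosolic copper/zinc enzymes, sod-4 for a secreted copper/zinc enzyme, and sod-2 and sod-3 for manganese enzymes of mitochondria. PRDX-2 is a cytosolic and PRDX-3 a mitochondrial peroxiredoxin.

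On each array 35.2% to 56.1% of gene probes were above local background in the Cy3 channel and 38.3% to 53.4% in the Cy5 channel, and none of the 618 empty spots (0) passed the filter on dim probes. Replicate 1 of CPF in Cy3 stood apart, with an SD of 0.900 over the ratios of tested probes, while the other 5 arrays had 0.424 to 0.468, and the values of members that moved by over 1.5 times without it are given. Arrays of the 2 orientations were scanned in separate series, CPF in Cy3 first, so dye orientation and scan series cannot be told apart. Signs follow the labels of the scanner files, with a negative log2 ratio meaning less signal in CPF than in control animals. In the table of processed ratios that was also deposited, each of the 6 columns matched an array of the opposite orientation, with an equal replicate number. By the labels of that table every sign given here would turn.

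Of the antioxidant enzymes, the catalase ctl-1 was lower in CPF animals by 1.67-fold and 1 of the 2 probes of the catalase ctl-2 (Y54G11A.5a) by 1.62-fold, while the other (Y54G11A.5b) was 1.28-fold lower and did not pass the test (adjusted p = 0.165 in limma). Of the 5 tested probes of dismutases and peroxiredoxins, 0 passed an adjusted p of 0.05 in either direction (limma, Benjamini-Hochberg over 11033 probes). With the catalases, 2 of the 9 tested probes passed, both lower, beside 3.50% of all tested probes (2.17% lower and 1.33% higher). Over all probes these were 239 lower and 147 higher calls, against 521 and 760 with scale normalisation between arrays and 50 and 4 with median centring within arrays, so the split of directions over the array depended on the scaling. By genes, 2 of 8 passed, beside 3.31% of all tested genes (2.34% lower). At an unadjusted p of 0.05, 4 of the 9 probes passed, the other two being those of ctl-2 (Y54G11A.5b) and sod-4, beside 27.3% of all tested probes. The plot of log2 ratios by array shows all 9 probes.

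**Figure D1:**
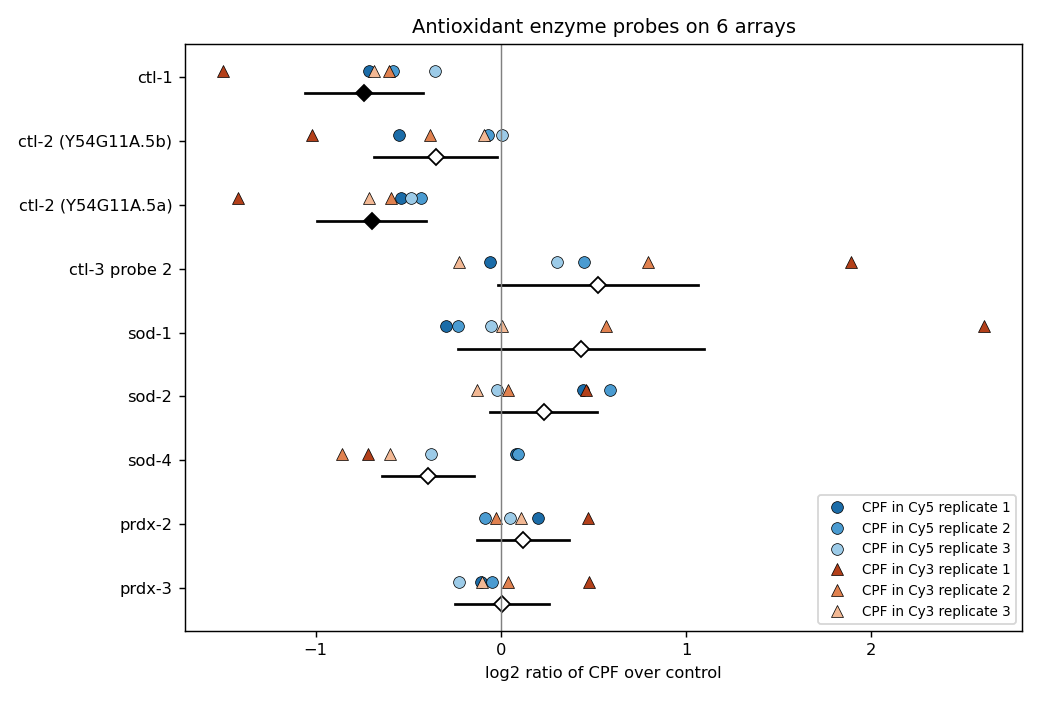
Log2 ratio of CPF over control (x axis) of each of the 9 tested probes (rows), with circles for the CPF in Cy5 arrays, triangles for the CPF in Cy3 arrays, and below them the fitted ratio (diamond, filled where the adjusted p was under 0.05) with its 95% confidence interval. All points of ctl-1 and ctl-2 (Y54G11A.5a) lie below 0, with fitted ratios of -0.74 and -0.70, while those of sod-1 spread from -0.30 to 2.61.

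The 3 catalase genes lie next to each other on chromosome II, with 0 annotated genes between them. The probe of ctl-1 (Y54G11A.6), the cytosolic catalase, had a normalised log2 brightness of 9.81 at the lowest, 10.55 at the median and 11.73 at the highest in CPF samples, against 10.40, 11.65 and 12.08 in control samples. The 2 groups overlapped, as they did for all but 0.317% of the tested probes, and the comparison rests on the ratio within each array. That ratio was -0.71, -0.58 and -0.35 on the CPF in Cy5 arrays and -1.499, -0.60 and -0.68 on the CPF in Cy3 arrays, each in the order of replicates 1 to 3. CPF was thus the dimmer channel on 6 of 6 arrays, which held for 8.10% of all tested probes. The fitted log2 ratio was -0.74 ± 0.14 (SE, n = 6, 95% confidence interval -1.06 to -0.42), with an adjusted p of 0.0338 in limma.

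The peroxisomal catalase ctl-2 had a probe for each of 2 sequence names, Y54G11A.5a and Y54G11A.5b. For Y54G11A.5a, the brightness was 10.56, 11.22 and 11.71 in CPF samples (lowest, median and highest), against 11.10, 11.91 and 12.60 in control samples. The log2 ratios were -0.54, -0.43 and -0.48 on the CPF in Cy5 arrays and -1.42, -0.59 and -0.71 on the CPF in Cy3 arrays. All 6 were below 0, and the fitted ratio was -0.70 ± 0.13 (SE, n = 6, 95% confidence interval -0.99 to -0.40), with an adjusted p of 0.0335 in limma. The probe moved much as that of its neighbour ctl-1, which differed from it by -0.04 ± 0.12 (mean ± SD, 6 arrays).

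The other probe of ctl-2, Y54G11A.5b, did not pass the test. Its brightness was 10.02, 11.23 and 11.84 in CPF samples, against 10.19, 11.54 and 11.94 in control samples. The log2 ratios were -0.55, -0.07 and 0.01 on the CPF in Cy5 arrays and -1.02, -0.38 and -0.09 on the CPF in Cy3 arrays, below 0 on 5 of 6. The fitted ratio was -0.35 ± 0.15 (SE, n = 6, 95% confidence interval -0.68 to -0.02), with an adjusted p of 0.165 in limma, and it was -0.22 without CPF in Cy3 replicate 1. The probes of ctl-2 thus gave different sizes of ratio: Y54G11A.5b lay above Y54G11A.5a by 0.34 ± 0.22 (mean ± SD) and on 5 of 6 arrays.

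The third catalase gene, ctl-3 (Y54G11A.13), had 3 probes, of which 1 was tested. Probes 1 and 3 were above background in 0 of 12 channels, so neither gives a fold. Probe 2 was above background in 5 of 6 CPF channels and in 3 of 6 control channels, with a brightness of 7.79, 8.69 and 9.17 in CPF samples, against 6.62, 8.08 and 9.22 in control samples. Its ratios were -0.06, 0.45 and 0.31 on the CPF in Cy5 arrays and 1.89, 0.79 and -0.23 on the CPF in Cy3 arrays. They were above 0 on 4 of 6 arrays, and the fitted ratio of 0.53 ± 0.24 (SE, n = 6, 95% confidence interval -0.02 to 1.07) did not pass, with an adjusted p of 0.192 in limma. Without CPF in Cy3 replicate 1, where the control signal was not above background, it was 0.26 (adjusted p = 0.343 in limma), and without CPF in Cy3 replicate 3 it was called, at 0.79 (adjusted p = 0.0262 in limma). The fit without replicate 3 called 1323 of the 11033 tested probes, 967 of them higher, in place of 386 and 147 with all 6 arrays.

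Both channels of ctl-3 probe 2 were above background on 3 arrays, CPF in Cy5 replicate 1 and CPF in Cy3 replicates 2 and 3. On these the mean of ctl-1 and ctl-2 (Y54G11A.5a) minus ctl-3 was -0.57, -1.39 and -0.47 on the log2 scale, while on the other 3 arrays the control signal of ctl-3 was not above background and no exact difference is given. The 3 genes code for related enzymes. The share of a probe's signal that comes from a neighbouring catalase was not tested, because the probe sequences were not used here. As a description of the region, the nearest 5 tested genes on each side of the cluster held 0 of 10 calls, beside 3.31% of all tested genes. Their fitted ratios ran from -0.38 (Y54G11A.7, adjusted p = 0.165 in limma) to 0.31 (Y54G11A.1, adjusted p = 0.128 in limma). These neighbours were chosen after the values of the catalases were seen.

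**Figure D2:**
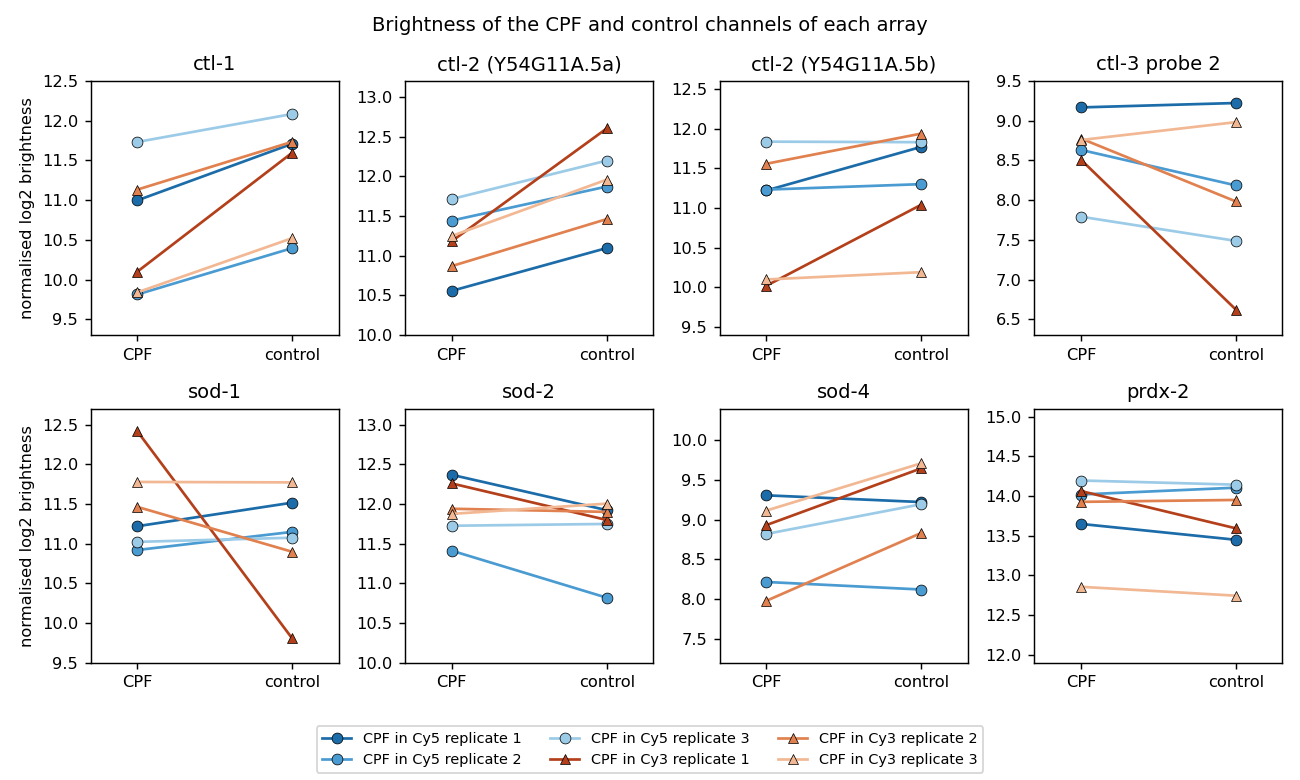
Normalised log2 brightness (y axis, with the same span but a different position in each panel) in the CPF and the control channel of 8 probes, with a line joining the channels of each of the 6 arrays. Every line of ctl-1 and ctl-2 (Y54G11A.5a) is lower at CPF, while the lines of sod-1 cross and that of CPF in Cy3 replicate 1 is the steepest.

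Of the superoxide dismutases, which supply the hydrogen peroxide that catalases remove, sod-1, sod-2 and sod-4 were measured and 0 of 3 passed the test. The probe of the main cytosolic enzyme gene sod-1 (C15F1.7) had a brightness of 10.92, 11.34 and 12.42 in CPF samples, against 9.81, 11.11 and 11.77 in control samples. Its ratios were -0.30, -0.23 and -0.05 on the CPF in Cy5 arrays and 2.61, 0.57 and 0.01 on the CPF in Cy3 arrays, so the sign followed the dye orientation on all 6. The fitted ratio was 0.43 ± 0.29 (SE, n = 6, 95% confidence interval -0.23 to 1.1), with an adjusted p of 0.343 in limma, and it averaged -0.19 on the CPF in Cy5 and 1.06 on the CPF in Cy3 arrays. The dye term of the same fit was -0.63, with an adjusted p of 0.514 in limma. Without CPF in Cy3 replicate 1 the ratio of sod-1 was 0.047, and without CPF in Cy3 replicate 3 it was 0.70.

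The mitochondrial manganese enzyme gene sod-2 (F10D11.1) had a brightness of 11.41, 11.91 and 12.37 in CPF samples, against 10.82, 11.85 and 12.003 in control samples. Its ratios were 0.45, 0.59 and -0.02 on the CPF in Cy5 arrays and 0.46, 0.04 and -0.13 on the CPF in Cy3 arrays, above 0 on 4 of 6. The fitted ratio was 0.23 ± 0.13 (SE, n = 6, 95% confidence interval -0.06 to 0.52), with an adjusted p of 0.263 in limma, and it was 0.15 without CPF in Cy3 replicate 1. The interval reaches from a slightly lower level in CPF animals to one 0.52 higher on the log2 scale.

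The secreted enzyme gene sod-4 (F55H2.1) came nearest to the threshold among the dismutases. It was above background in 11 of 12 channels, with a brightness of 7.98, 8.88 and 9.31 in CPF samples, against 8.12, 9.21 and 9.71 in control samples. Its ratios were 0.08, 0.09 and -0.37 on the CPF in Cy5 arrays and -0.72, -0.86 and -0.60 on the CPF in Cy3 arrays. The means of the orientations were -0.07 and -0.72. The fitted ratio was -0.39 ± 0.11 (SE, n = 6, 95% confidence interval -0.64 to -0.14), with an adjusted p of 0.0803 in limma, and the dye term was 0.33 with an adjusted p of 0.491. Calls of this gene in other fits are given in the closing section.

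The other mitochondrial enzyme gene sod-3 (C08A9.1) and the cytosolic sod-5 (ZK430.3) were not well above background. The probe of sod-3 was above it in 1 of 12 channels, a control channel, with a brightness of 6.30 to 6.86 in CPF samples and 6.35 to 7.04 in control samples. The probe of sod-5 was above it in 0 of 12 channels, with 6.33 to 6.86 in CPF samples and 6.23 to 6.90 in control samples. A change of these 2 genes was not detectable with these arrays, and no fold is given.

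The peroxiredoxins gave the smallest ratios. The cytosolic prdx-2 (F09E5.15) had a brightness of 12.86, 13.97 and 14.19 in CPF samples, against 12.74, 13.77 and 14.14 in control samples. Its ratios were 0.20, -0.09 and 0.05 on the CPF in Cy5 arrays and 0.47, -0.02 and 0.11 on the CPF in Cy3 arrays. The fitted ratio was 0.12 ± 0.11 (SE, n = 6, 95% confidence interval -0.13 to 0.37), with an adjusted p of 0.476 in limma, and it was 0.050 without CPF in Cy3 replicate 1.

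The mitochondrial prdx-3 (R07E5.2) had a brightness of 12.01, 12.93 and 13.60 in CPF samples, against 12.06, 13.04 and 13.30 in control samples. The ratios were -0.11, -0.05 and -0.23 on the CPF in Cy5 arrays and 0.48, 0.04 and -0.10 on the CPF in Cy3 arrays. The fitted ratio was 0.01 ± 0.11 (SE, n = 6, 95% confidence interval -0.25 to 0.26), with an adjusted p of 0.979 in limma, and it was -0.079 without CPF in Cy3 replicate 1. For both peroxiredoxins the interval reaches no further than 0.37 from 0 on the log2 scale. No probe of the 13 had saturated pixels (0%).

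Set against the dismutases, the catalases as a family were lower by 0.39 on the log2 scale, in the mean over genes with the brightest tested probe of each gene. The difference of catalase minus dismutase averaged -0.39 ± 0.40 (mean ± SD, 6 arrays), was below 0 on 6 of 6 arrays and ran from -1.13 to -0.03. It averaged -0.29 on the CPF in Cy5 and -0.49 on the CPF in Cy3 arrays, and -0.25 without CPF in Cy3 replicate 1. The means of the families were -0.30 ± 0.16 for the 3 catalases, 0.09 ± 0.37 for the 3 measured dismutases and 0.06 ± 0.21 for the peroxiredoxins. Without CPF in Cy3 replicate 1 they were -0.30 for the catalases, -0.05 for the dismutases and -0.02 for the peroxiredoxins. The median over all tested genes was 0.01. These are descriptions with no test, because the genes were chosen with results of these arrays known.

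The family value includes ctl-3, whose probe did not pass the test and was dim in 3 of 6 control channels. Without ctl-3, the difference from the dismutases was -0.81 ± 0.72 (from -2.25 to -0.27, below 0 on 6 of 6 arrays) and -0.52 without CPF in Cy3 replicate 1. Pair by pair, ctl-1 lay below sod-1 by 1.17 ± 1.47 (mean ± SD) and below sod-2 by 0.97 ± 0.59, on 6 of 6 arrays each, and below sod-4 on 4 of 6 arrays. Without CPF in Cy3 replicate 1 the means of ctl-1 minus sod-1 and ctl-1 minus sod-2 were -0.59 and -0.77. For ctl-2 (Y54G11A.5a) the differences averaged -1.13 against sod-1 and -0.93 against sod-2, below 0 on 6 of 6 arrays each, and -0.30 against sod-4, below 0 on 5 of 6. Without CPF in Cy3 replicate 1 the difference of ctl-2 from sod-1 was -0.55 and that from sod-2 was -0.74. The difference of ctl-1 from sod-4 averaged -0.49 on the CPF in Cy5 arrays and -0.21 on the CPF in Cy3 arrays. For ctl-3, with its dim control channels included, the mean differences were above 0. They were 0.09 against sod-1, 0.29 against sod-2 and 0.92 against sod-4, below 0 on 2, 3 and 1 of 6 arrays. Without CPF in Cy3 replicate 1 these means were 0.25, 0.07 and 0.58.

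**Figure D3:**
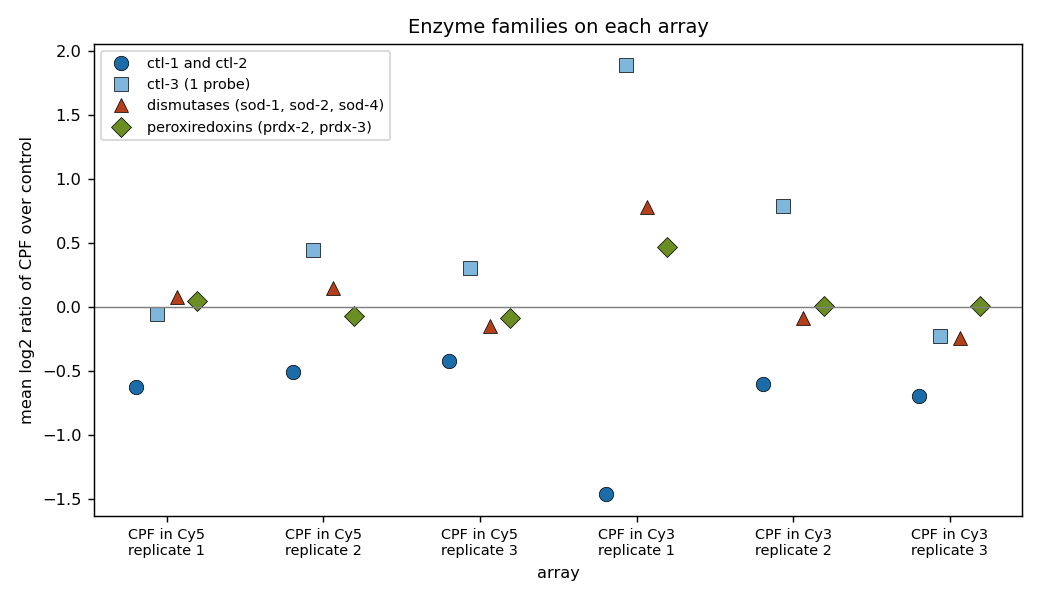
Log2 ratio of CPF over control (y axis) on each of the 6 arrays (x axis) for the mean of ctl-1 and ctl-2 (Y54G11A.5a), for ctl-3 probe 2, for the mean of sod-1, sod-2 and sod-4, and for the mean of prdx-2 and prdx-3. The control channel of ctl-3 was not above background on CPF in Cy5 replicates 2 and 3 and CPF in Cy3 replicate 1, and the mean of ctl-1 and ctl-2 ranges from -1.46 to -0.42.

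The calls of ctl-1 and ctl-2 (Y54G11A.5a) held without 2 of the 6 arrays and were lost without the other 4. The fitted ratio of ctl-1 kept its sign and lay between -0.82 and -0.60 without each array in turn, and that of ctl-2 (Y54G11A.5a) between -0.77 and -0.57. Both were called when replicate 1 or replicate 3 of CPF in Cy3 was left out, and neither was called without any of the other 4 arrays, where the highest adjusted p was 0.173 for ctl-1 and 0.166 for ctl-2 (limma). Calls over all 11033 tested probes moved in the same way. They were 806 and 1323 without replicate 1 or replicate 3 of CPF in Cy3, 58 to 94 without each of the other 4 arrays, and 386 with all 6 arrays.

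**Figure D4:**
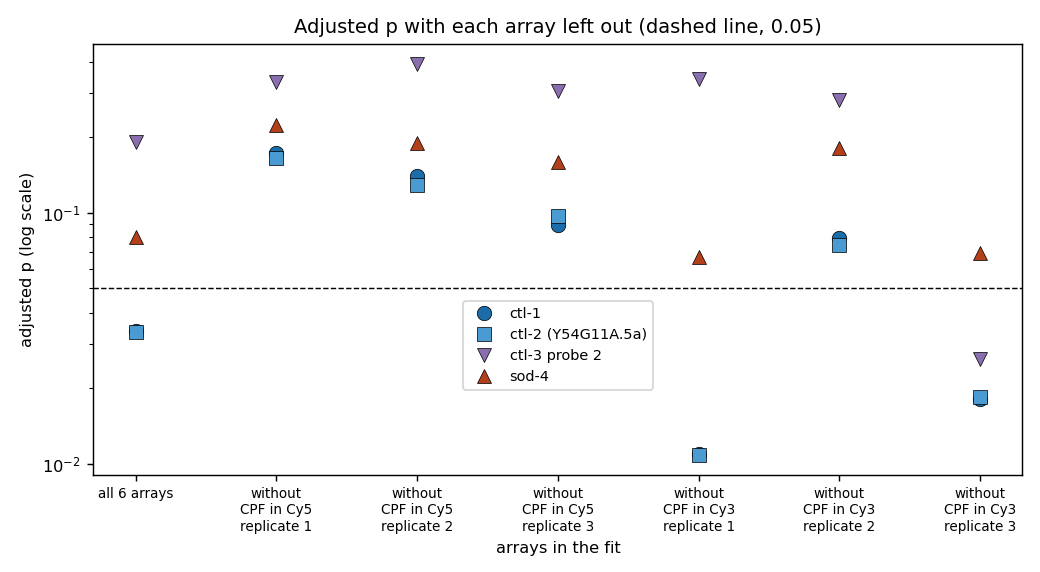
Adjusted p (limma, y axis, log scale) of ctl-1, ctl-2 (Y54G11A.5a), ctl-3 probe 2 and sod-4 with all 6 arrays and with each array left out (x axis), and a dashed line at 0.05. The probes of ctl-1 and ctl-2 lie under the line with all arrays and without replicate 1 or 3 of CPF in Cy3, and over it in the other 4 fits. Fewer of all tested probes were called in those 4 fits than with all 6 arrays.

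Peroxisomes, where ctl-2 works, import their proteins with the prx genes and shorten fatty acids with acyl-CoA oxidases (acox), maoc-1, dhs-28 and daf-22. Of 25 genes on this list 22 were tested, 3 passed as lower and 0 as higher, beside 2.34% lower and 0.965% higher among all tested genes, and the median was -0.08, beside 0.01 over all. The acyl-CoA oxidase gene acox-3 (F58F9.7), of the family whose reaction yields hydrogen peroxide, had a fitted ratio of -0.93 ± 0.12 (SE, n = 6, adjusted p = 0.00828 in limma). The peroxisomal ABC transporter gene pmp-4 (T02D1.5) lay at -0.64 ± 0.12 (SE, n = 6, adjusted p = 0.0336 in limma). The thiolase gene daf-22 (Y57A10C.6), of the last step of the shortening, lay at -0.59 ± 0.10 (SE, n = 6, adjusted p = 0.0287 in limma). All 3 were below 0 on 6 of 6 arrays, as were 8.10% of all tested probes. The call of acox-3 was kept without each array in turn (highest adjusted p = 0.0481 in limma), and those of pmp-4 and daf-22 were kept only without CPF in Cy3 replicate 1 or replicate 3, as for the catalases. The import receptor gene prx-5 had -0.28 (adjusted p = 0.160 in limma), and 0 of the tested prx genes passed.

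The thiol and glutathione systems, which also remove peroxides, had 22 of 26 listed genes tested and a median of -0.03. Of these 0 were called in either direction, beside 3.31% of all tested genes. The smallest p-values were those of gpx-5, of the glutathione peroxidase family, with -0.32 (adjusted p = 0.104 in limma), and of the thioredoxin-like gene txl-1 with 0.39 (adjusted p = 0.111 in limma). The peroxiredoxin-6 gene prdx-6 had 0.61 ± 0.20 (SE, n = 6), above 0 on 6 of 6 arrays (as were 8.45% of all tested probes), with an adjusted p of 0.115 in limma, and was named after its value was seen. Without CPF in Cy3 replicate 1 its ratio was 0.36 (adjusted p = 0.0788 in limma), and without CPF in Cy3 replicate 3 it was called, at 0.76 (adjusted p = 0.0409 in limma). The fit without replicate 3 called 1323 of the 11033 tested probes, 967 of them higher.

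The list drawn up for sources of superoxide also holds genes of related enzymes, such as nnt-1. Of its genes 13 of 13 were tested and 0 passed, beside 3.31% of all tested genes, with a median of -0.14. The nicotinamide nucleotide transhydrogenase gene nnt-1, whose enzyme supplies NADPH to mitochondria, had -0.66 ± 0.17 (SE, n = 6, adjusted p = 0.0702 in limma), and the complex I subunit gene nuo-6 had 0.42 ± 0.17 (SE, n = 6, adjusted p = 0.159 in limma), or 0.25 without CPF in Cy3 replicate 1. Of regulators of antioxidant genes, 15 of 17 were tested and 0 passed, beside the same 3.31%, with a median of -0.09. The insulin receptor gene daf-2 and the kinase gene nsy-1 were too dim to test. The smallest p-values were those of wdr-23, a negative regulator of the factor SKN-1, at -0.34 (adjusted p = 0.0909 in limma), and of the kinase gene akt-1 at -0.33 (adjusted p = 0.116 in limma). The factor genes daf-16 and skn-1, which control several of these enzymes, had -0.27 (adjusted p = 0.205 in limma) and 0.15 (adjusted p = 0.410 in limma).

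**Figure D5:**
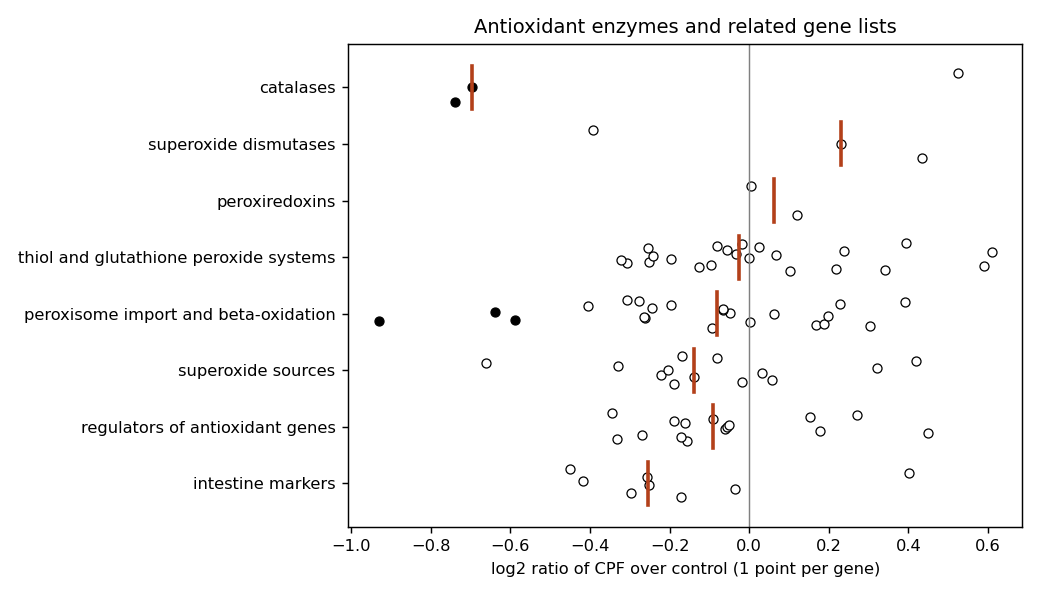
Fitted log2 ratio of CPF over control (x axis) of each tested gene (points, filled where the adjusted p was under 0.05) of the 3 enzyme families, the 4 pathway lists and the intestine markers (rows), with a bar at the median of each row. The filled points are 2 catalases and 3 genes of the peroxisome list, and all 5 lie below 0.

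The samples were whole animals, so fewer cells of a type and less RNA per cell cannot be told apart. The intestine carries much of the peroxisomal fatty acid oxidation of the nematode. All 8 of its 8 listed marker genes were tested, and 0 passed, beside 3.31% of all tested genes. Of the 8, 7 had a ratio below 0, beside 49.1% of all tested genes. The median was -0.25 (medians per array from -0.51 to 0.03). Their summed brightness ran from 57087 to 82247 in CPF samples and from 76000 to 94488 in control samples. The gut esterase gene ges-1 had -0.42 (adjusted p = 0.0702 in limma), the proton pump gene vha-6 -0.45 (adjusted p = 0.0876 in limma) and the factor gene elt-2 -0.04 (adjusted p = 0.868 in limma). The marker with a ratio above 0 was pept-1 at 0.40 (adjusted p = 0.324 in limma). The part of intestinal markers in the ratios of the catalases was not tested.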

How the data were processed

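Spot intensity (mean, median and local background, Cy3 first) and the percent of saturated pixels were deposited as the authors' image software, ScanArray Express, wrote them, with no normalisation. The authors also deposited processed log2 ratios. For these the labels name limma 3.2.3, and the methods name loess and Aquantile normalisation. Over 6854 bright probes, the columns of these ratios labelled CPF in Cy5 correlated at 0.925 to 0.996 with the array of the opposite orientation. Those labelled CPF in Cy3 correlated at -1.00 to -0.93 with it. With the array of their own label, the columns correlated at -0.22 to 0.40. These ratios therefore served as an alternative with columns matched in that way, and each column was turned to the sign of its matched array.

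Spots were assigned to genes by sequence name with the isoform letter removed (21382 probes), by platform gene number (31) or kept the name in the file (1077), and 742 control or empty spots were dropped. The intensity then underwent normexp correction (offset 50), was normalised by loess and Aquantile, and turned to log2 ratios of CPF over control. The filter kept probes, 49.1% of those for genes, whose median exceeded the local background by 2 of its SDs in 6 or more of the 12 channels. Signal over background is the depth of an array, and the number of arrays limits the precision. Ratios were fitted over all tested probes in limma 3.58.1 (R 4.3.3; lmFit, eBayes, 2-sided) on a term for CPF and one for the dye, with Benjamini-Hochberg adjustment and a threshold of 0.05. The study's methods state a linear model with a toxicant term. As an alternative, such a model was fitted to single channels without their pairing on an array, which the methods do not specify. According to the methods, the 6 replicates were separate biological samples. Lists and family means used the brightest tested probe of each gene. Of each pathway list, called genes (up to 4 with the largest ratios) were named and, with fewer than 2 calls, the 2 with the smallest p. Other non-member genes were named after their values were seen. The members and lists were chosen with earlier results of these data known. Chromosomes and gene order came from RefSeq for assembly WBcel235, and no coordinates or sequences are given because the files name no build and probe sequences were not used here. The search for promoter motifs was not run for the same reason. The procedure was also run on simulated data, with normal noise scaled down from the observed spread and no dye effect. That run does not show how the procedure performs on these arrays. Python 3.11.15 with matplotlib 3.10.9 drew the figures. Alternatives covered background correction, normalisation, the dye term, the filter, a block of replicate numbers, averaged arrays, array weights and robust regression. They also covered the deposited table, the model on single channels, each orientation alone and each array left out.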

Additional observations from a re-analysis of the deposited data

Results flagged for a closer look

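On CPF in Cy3 replicate 1, 4 of the 9 tested probes stood apart from their values on the other 5 arrays, by a gap large against the range over the 6 arrays. The log2 ratio of ctl-1 was -1.499 there and -0.71 to -0.35 elsewhere. That of ctl-2 (Y54G11A.5a) was -1.42 there and -0.71 to -0.43 elsewhere. That of sod-1 was 2.61 there and -0.30 to 0.57 elsewhere, and that of prdx-3 was 0.48 there and -0.23 to 0.04 elsewhere. Thus ctl-1 and ctl-2 (Y54G11A.5a) were lower and sod-1 and prdx-3 higher on this array than on the rest. The catalase ctl-3 (probe 2), not among the 4, also had its highest ratio there, at 1.89, with a control signal not above background. A lone array of this kind was found for 9.97% of all tested probes, and chance alone gives about 1 in 20. The largest ratio in size lay on this array for 50.1% of all tested probes, and its ratios were the most spread of the 6 (SD 0.900). In the deposited table, 8 of the 9 member probes were blank on it, beside 52.4% of all tested probes, and at most 2 of 9 were blank on any other array. The part of this array's quality in these values was not tested. Without it the fitted ratios of ctl-1 and ctl-2 (Y54G11A.5a) were -0.60 and -0.57. Both were called, with adjusted p-values of 0.0109 each (limma), among 806 of 11033 probes, in place of 386 with all 6 arrays.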

How the results depend on the processing

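The ratios of ctl-1 and ctl-2 (Y54G11A.5a) stayed below 0 under all 23 alternatives that gave a value, and each was called in 12 of the 22 with an adjusted p (5.15e-05 to 0.241 for ctl-1, 7.90e-05 to 0.241 for ctl-2). Both kept the call without background correction, with scale or no normalisation between arrays (the ratios do not change with Aquantile), with 12 bright channels, with no filter, without the dye term, in robust regression, in the deposited table and with array weights. Of the 9 member probes 0, in place of 2, were called with plain background subtraction (ctl-1 -0.79, adjusted p = 0.0557, and ctl-2 -0.73, adjusted p = 0.0529, in limma) and with median centring within arrays (-0.66 and -0.63). The same held for averaged same-numbered arrays (-0.74 and -0.70), the CPF in Cy5 arrays alone (-0.55 and -0.48) and the CPF in Cy3 arrays alone (-0.93 and -0.91). It also held for the linear model on single channels (-0.74 and -0.70), with unadjusted p = 0.119 and 0.0296 and a threshold of 0.01. That model ignores the pairing of channels on an array and is 1 reading of the methods, not the study's own fit. Without each array in turn, 0 to 3 were called, with ctl-1 from -0.82 to -0.60, ctl-2 (Y54G11A.5a) from -0.77 to -0.57 and ctl-3 probe 2 from 0.26 to 0.79. Array weights called 6, among 5005 of 11033 probes, adding ctl-2 (Y54G11A.5b) at -0.35, ctl-3 at 0.47, sod-4 at -0.41 and sod-2 at 0.24. These weights did not converge, and that of CPF in Cy3 replicate 2 was 27.4. The gene sod-4 was also called in robust regression (-0.38, among 1591 probes) and in the deposited table (-0.28, adjusted p = 0.0241, among 706 of 8002). The near-zero ratio of prdx-3 turned to -0.017 with plain subtraction, -0.027 with scale normalisation, -0.034 with array weights, -0.035 in robust regression, -0.13 on the CPF in Cy5 arrays alone, -0.079 when CPF in Cy3 replicate 1 was left out and -0.014 without CPF in Cy5 replicate 2, and it ran from -0.079 to 0.065 without single arrays. That of sod-1 turned to -0.19 on the CPF in Cy5 arrays alone. The difference of catalase minus dismutase was -0.81 without ctl-3 and -0.75 with the median over the genes of each family, both chosen after seeing the data. It was -0.34 with the mean of both ctl-2 probes, also chosen then. The difference was -0.26 with plain subtraction, -0.29 in the deposited table, -0.34 with scale normalisation and -0.44 without background correction. It ran from -0.47 to -0.25 without single arrays. The causes were not tested.

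Whether same-numbered arrays share more than a number is not known from the labels. Their deviations correlated at 0.10, -0.08 and 0.27 across probes, which cannot settle it. With the replicate number as a random block, 0 member probes were called, among 169 of all probes in place of 386, with ctl-1 at -0.74 (adjusted p = 0.0515) and ctl-2 (Y54G11A.5a) at -0.70 (0.0508). With the block as fixed terms, chosen after seeing the data, both were called, among 470. Over all probes the count was 233 with plain subtraction, 54 with median centring, 243 without background correction and 1281 with scale normalisation. It was 256 of 5963 with 12 bright channels, 205 without the dye term, 165 with averaged arrays and 89 in the methods' model. It was 629 on the CPF in Cy5 and 20 on the CPF in Cy3 arrays alone, and 58 to 1323 without single arrays. Of the other genes described, acox-3 was called in 20 of 22 alternatives with an adjusted p, pmp-4 in 13 of 21 and daf-22 in 12 of 21. Signal over background left sod-3, sod-5 and 2 of 3 probes of ctl-3 without a value.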

Other observations

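Markers of tissues other than the intestine gave the following values, beside 3.31% called among all tested genes. Of the hypodermis markers, genes of the skin and its collagens, 6 of 6 were tested and 0 passed, with a median log2 ratio of CPF over control of 0.53. The medians per array averaged 0.15 on the CPF in Cy5 and 0.73 on the CPF in Cy3 arrays, from -0.02 to 1.25. The collagen gene dpy-13 had 1.197 ± 0.29 (SE, n = 6), above 0 on 6 of 6 arrays, with an adjusted p of 0.0613 in limma. Ratios of this list ran from -0.07 (sqt-3) and 0.05 (dpy-7) to 1.29 (col-19). Of the oocyte and germ line markers, 8 of 8 were tested, 0 passed and 7 had a ratio above 0, with a median of 0.23. The germ granule gene pgl-1 had the highest ratio of this list, 1.02 ± 0.31 (SE, n = 6), with an adjusted p of 0.0928 in limma. The lowest was that of glh-1 at -0.06 (adjusted p = 0.839 in limma). Of the sperm markers 4 of 9 were tested, all 4 with a fitted ratio above 0, with a median of 0.31 and 0 calls. Their medians per array averaged 0.67 on the CPF in Cy5 and -0.08 on the CPF in Cy3 arrays, from -0.18 to 1.23. Muscle (7 of 7 tested), neuron (8 of 9) and pharynx markers (5 of 6) had medians of -0.01, -0.17 and 0.03. Of these, 1 passed, the pharyngeal troponin gene tnt-4, which was higher at 0.50 ± 0.10 (SE, n = 6) with an adjusted p of 0.0345 in limma. The part of these tissues in the ratios of the antioxidant genes was not tested.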
